A study of Mus musculus with 1298 samples.

Results

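The 9 genes described here belong to the retinoic acid pathway: the plasma retinol carrier Rbp4, the retinal dehydrogenases Aldh1a1 and Aldh1a2, the cellular retinoic acid binding proteins Crabp1 and Crabp2, the retinoic acid hydroxylase Cyp26b1, and the retinoic acid receptors Rara, Rarb and Rarg. They were chosen by name, as the rows with these symbols, and all 9 were present in each table: 9 of 17634 genes in the 10x table, 9 of 22894 in the Smart-seq2 (ss2) table and 9 of 22938 in the bulk table. Earlier results of these data were known when the choice was made, and the paper had used Crabp1 as a marker of dermal fibroblasts.

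Retinol circulates bound to its plasma carrier and is oxidised inside cells, first to retinal and then by retinal dehydrogenases to retinoic acid. Retinoic acid enters the nucleus and binds receptors that sit on DNA as heterodimers with retinoid X receptors, while cellular binding proteins shuttle it and hydroxylases of the Cyp26 family degrade it. In the embryo, sources of synthesis beside sites of degradation give local differences in retinoic acid, and the pathway is known for its roles in the somites, the spinal cord and the skin.

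The study traced cells that had expressed Pax7 in mouse embryos and asked which trunk tissues they became. All embryos were Pax7CreER:R26R-stop-EYFP, in which a Cre recombinase driven by Pax7 switches on a yellow fluorescent protein (YFP) after tamoxifen, and dams received tamoxifen at E9.5 (75 µg per g of body weight), so that only descendants of cells with active Pax7 around that day were marked. Heads, limbs and viscera had been removed, YFP+ cells were sorted, and single cells were sequenced on 3 days, E12.5, E14.5 and E16.5, both in 10x droplets (1 library a day) and on ss2 plates. Embryos were pooled before sorting, so no value belongs to 1 embryo. The bulk data used here are 2 libraries of freshly sorted YFP+, Pdgfra-/Cd36+ cells of E16.5.

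Of 3916 deposited cells, 3852 passed the filters, 2921 from 10x and 931 from ss2, and 3 barcodes occurred in more than 1 of the 10x libraries. The 10x libraries differed in depth, as the median total per cell shows: DF-like cells held 5479.5 UMIs (unique molecular identifiers, each counting 1 RNA molecule) at E14.5 and 1358.5 at E16.5. Classes were rebuilt from markers and carry the suffix "-like": early and late progenitors (EP, LP), dermal fibroblasts (DF), brown adipocytes (BA), early and late muscle (EM, LM), neurons (N), neural progenitors (NP) and pericytes (PE). Each class kept at least 7 of its own markers with a count in every sum, except NP-like with 4 and 6 of 7. Of the 3 clusters called LP-like, 1, the largest, was led by Tnmd and Col2a1, genes of tendon and cartilage, and 1 (60 cells) by Bmper and Prelp with Cd36 among its leaders, so calls that change with them are also given for the remaining LP-like cluster alone (260 cells, led by Clec3b and Dpt), which gave LP-like sums at E16.5 and none at E14.5. The retinoid genes took no part in the clustering, but other genes did, which raises the share of all genes called in comparisons between classes.

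Levels are given as CPM, counts scaled to a common class total, over all cells of a class on a given platform and day, called a sum, with at least 20 cells. For 10x, intervals are exact 95% Poisson intervals and cover counting error only. The ss2 values are estimated counts of full-length reads with no molecular identifiers, so levels were compared between classes on the same platform and not between platforms or between genes. The plot of levels by class and day shows every sum.

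**Figure D1:**
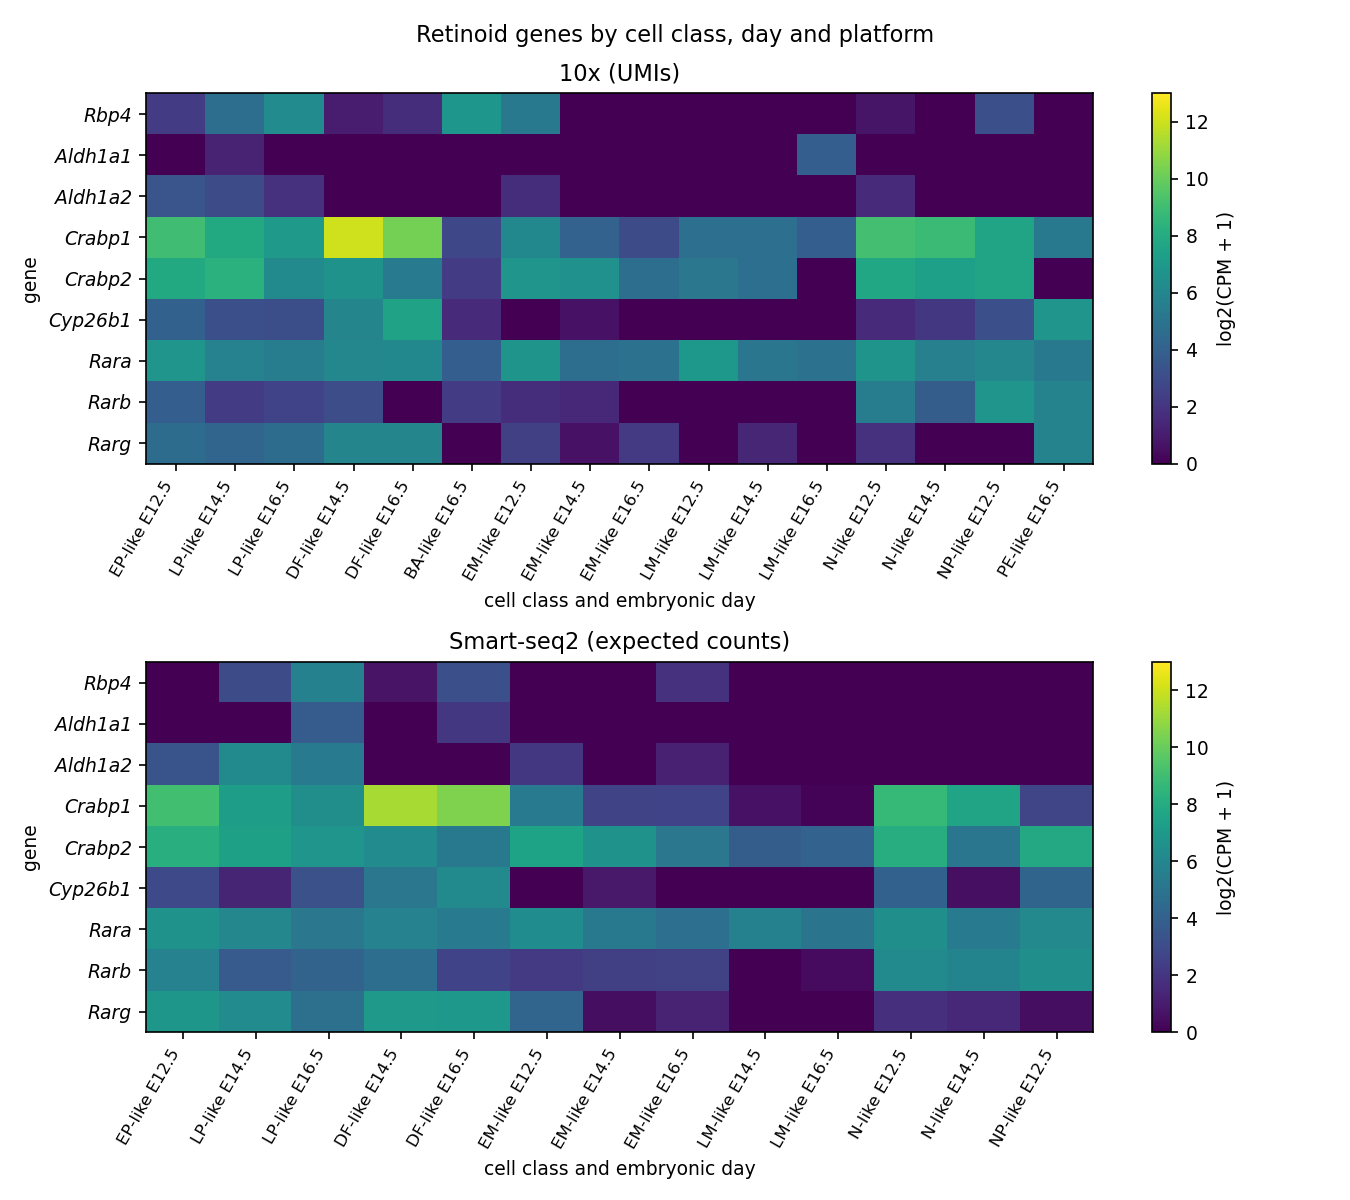
Level of each of the 9 retinoid genes (rows) in each cell class and embryonic day (columns) as log2(CPM + 1), in 10x sums on one panel and ss2 sums on the other. Brighter tiles are higher levels. The brightest Crabp1 tiles are DF-like at E14.5 on both platforms. Rbp4 is brighter in LP-like and BA-like sums of E16.5 than in the other classes, and Aldh1a1 is dark nearly throughout.

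Rbp4 lies on the minus strand at chr19:38116629-38125281 (GRCm38, GENCODE vM21, as for all gene positions here). In 10x, LP-like cells held 56 UMIs at E14.5, or 25.03 CPM, and 29 UMIs at E16.5, or 75.2 CPM. In ss2 the LP-like levels were 6.71 CPM at E14.5, from 8 of 55 cells, and 51.9 CPM at E16.5, from 48 of 93 cells. BA-like cells, present as a sum only in 10x at E16.5, were at 113.1 CPM (95% interval 85.7 to 146.5; 57 UMIs), the highest level of Rbp4 in any sum. By contrast, EP-like cells were at 3.86 CPM (2 UMIs) in 10x and at 0 in ss2, and the 4 DF-like sums were at 1.05, 2.23, 0.594 and 7.89 CPM. All 5 LM-like sums were at 0, and the 4 N-like sums held 1 UMI in 10x at E12.5 and otherwise 0. A single EM-like cell of E12.5 carried all 17 UMIs of its 10x sum. Rbp4 was therefore carried by LP-like and BA-like cells, and its LP-like levels at E16.5 were above those at E14.5 on both platforms. In 10x these days held different LP-like clusters, the ones led by Tnmd and by Bmper at E14.5 (21.7 and 36.8 CPM) and the one led by Clec3b at E16.5 (74.02 CPM). In ss2 the Tnmd cluster was present on both days, at 4.91 and 56.5 CPM.

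Shares of cells with an Rbp4 UMI gave the same picture once depth was set equal. At E16.5, 9.17% of LP-like cells had a UMI at a median of 1467.5 UMIs per cell, against 0.325% of DF-like cells at a median of 1358.5. BA-like cells were deeper, with a median of 3030.5, and 27.2% of them had a UMI. After cells were thinned to 1000 UMIs, leaving out shallower ones (1 BA-like, 23 LP-like and 39 DF-like), the shares were 8.28% in BA-like, 5.53% in LP-like and 0% in DF-like cells (upper 95% bound 1.36%). The difference between BA-like and LP-like shares narrowed with thinning, and their intervals (4.48% to 13.7% and 2.89% to 9.46%) overlapped.

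Aldh1a2, which makes most of the retinoic acid of the early embryo, lies on the plus strand at chr9:71215789-71296243. LP-like cells held 16 UMIs at E14.5 (7.15 CPM) and 1 at E16.5 (2.59 CPM) in 10x, and 72.6 CPM and 40.2 CPM in ss2. Few cells made these sums, since 5 of 55 cells had a count at E14.5 in ss2, where the highest cell held 57.8% of the sum, and 16 of 93 had one at E16.5, where the highest held 28.4%. EP-like cells were at 9.65 CPM (5 UMIs) in 10x and at 9.32 CPM in ss2, from 8 of 120 cells. All 4 DF-like sums were at 0, as were the BA-like sum and all LM-like sums. Aldh1a2 was thus a gene of a minority of progenitor cells. In ss2 the LP-like cluster led by Tnmd and Col2a1 stood at 97.7 CPM at E14.5 and 49.5 CPM at E16.5. The cluster led by Clec3b and Dpt stood at 7.13 CPM in ss2 at E16.5. Shares of cells with a count were close in these 2 clusters at E16.5 in ss2, at 17.2% and 15.4%. In 10x at E14.5 the clusters led by Tnmd and by Bmper were also close, at 7.23 and 6.90 CPM.

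Aldh1a1, a second retinal dehydrogenase (plus strand, chr19:20492715-20643465), was close to undetected. It held 3 UMIs in LP-like cells of E14.5 and 0 at E16.5 in 10x, and in ss2 it was at 12.8 CPM in LP-like cells of E16.5, from 13 of 93 cells. DF-like cells of E16.5 in ss2 stood at 3.36 CPM, from 3 of 71 cells. At this 10x depth a count of 0 allows up to 5.95 CPM in BA-like cells and up to 10.7 CPM in EM-like cells of E16.5, so low levels there were not detectable.

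Crabp1 binds retinoic acid in the cytoplasm and lies on the plus strand at chr9:54764748-54773110. DF-like levels were 4280 CPM (4150 to 4414) at E14.5 and 1224 CPM (1124 to 1331) at E16.5 in 10x, and 2487 and 1457 CPM in ss2. LP-like levels were 234.2 and 124.4 CPM in 10x and 155.8 and 83.8 CPM in ss2. EP-like cells stood between them at 517.4 CPM in 10x and 530.1 CPM in ss2, as did N-like cells of E12.5 and E14.5 with 546 and 468.9 CPM in 10x and 420.97 and 191.8 CPM in ss2. In the muscle classes it was low, at 66.5, 15.8 and 7.14 CPM in EM-like cells from E12.5 to E16.5 in 10x and 40.7, 5.28 and 5.13 CPM in ss2, and BA-like cells held 3 UMIs (5.95 CPM). The DF-like sums did not overlap with those of any other class on their platform, although 1 N-like ss2 plate of E12.5 reached 2695 CPM.

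Among cells thinned to 1000 UMIs (39 DF-like, 23 LP-like and 43 EP-like cells were too shallow), 79.1% of DF-like cells at E14.5 and 59.9% at E16.5 had a Crabp1 UMI, against 14.9% and 8.76% among LP-like cells. EP-like cells had a share of 35.02%, and the muscle cells called EM-like had 1.40% at E14.5. Before thinning the shares were 91.8% and 72.1% for DF-like and 40.96% and 14.2% for LP-like cells, with 49.6% for EP-like and 10.7% for EM-like. The ss2 cells can be split by plate, and the E14.5 DF-like plates held 1947, 2373 and 2576 CPM (lowest, median and highest of 3), while the E16.5 DF-like plates ran from 1066 through 1463 to 1724 CPM (4 plates). LP-like plates ran from 124.7 through 184.3 to 205.03 CPM at E14.5 and from 37.9 through 96.8 to 102.99 CPM at E16.5. No LP-like plate reached a DF-like plate, and the E14.5 and E16.5 DF-like plates did not overlap either. DF-like cells of E14.5 and of E16.5 lay mostly in different clusters, and in the cluster with cells of both days the 10x levels of Crabp1 were 5619 CPM at E14.5 and 1327 CPM at E16.5 (those of Cyp26b1 75.7 and 224.2 CPM).

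Crabp2, which delivers retinoic acid to its receptors, was spread more widely (plus strand, chr3:87948666-87953376). LP-like levels were 317.3 CPM at E14.5 and 72.6 CPM at E16.5 in 10x and 168.9 and 107.7 CPM in ss2. DF-like levels were lower in each pool, the cells of a given platform and day, with 99.05 and 37.9 CPM in 10x and 76.03 and 37.9 CPM in ss2. EP-like cells stood at 235.5 CPM in 10x and 281.97 CPM in ss2. N-like cells were at 218.8 and 162.96 CPM in 10x and 269.7 and 33.8 CPM in ss2, and EM-like cells at 108.6, 95.7 and 25.003 CPM in 10x and 184.9, 97.3 and 35.2 CPM in ss2 from E12.5 to E16.5. BA-like cells held 2 UMIs (3.97 CPM). Within the LP-like class the level depended on the cluster: the one led by Tnmd and Col2a1 stood at 360.7 CPM in 10x at E14.5 and at 142.4 CPM in ss2 at E16.5, while the one led by Clec3b and Dpt stood at 68.54 CPM in 10x at E16.5 (25 UMIs) and at 12.48 CPM in ss2 at E16.5, from 5 of 26 cells. Crabp1 and Crabp2, although close relatives, were thus highest in different classes.

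Cyp26b1, which inactivates retinoic acid, lies on the minus strand at chr6:84571414-84593908. DF-like cells held 57 UMIs at E14.5, or 60.1 CPM (45.5 to 77.8), and 79 UMIs at E16.5, or 176.2 CPM (139.5 to 219.5). The ss2 DF-like levels were 34.9 CPM at E14.5, from 13 of 46 cells with 58.9% of the sum in the highest cell, and 74.2 CPM at E16.5, from 58 of 71 cells. LP-like levels were 8.05 and 7.78 CPM in 10x and 1.58 and 8.41 CPM in ss2, all below every DF-like sum. EP-like cells were at 15.4 CPM in 10x and 6.36 CPM in ss2, and 4 of 6 EM-like sums and all LM-like sums were at 0, the other 2 EM-like sums holding 1 UMI in 10x and 0.858 CPM in ss2. PE-like cells, 30 cells in 10x at E16.5, held 6 UMIs or 110 CPM with a wide interval of 40.4 to 239.6 CPM. Thinned to 1000 UMIs, 3.16% of DF-like cells at E14.5 and 14.1% at E16.5 had a UMI, against 1.33% and 0.922% of LP-like cells. On ss2 plates, DF-like cells ran from 0 through 3.01 to 52.6 CPM at E14.5 and from 53.7 through 64.1 to 116.2 CPM at E16.5, so every E16.5 plate lay above every E14.5 plate.

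Rara, the most evenly distributed receptor (plus strand, chr11:98927818-98974942), had counts in all 29 sums. It was at 110.04 CPM in EP-like cells in 10x and 100.5 CPM in ss2. LP-like cells were at 52.7 and 44.1 CPM in 10x and 63.7 and 34.3 CPM in ss2, DF-like cells at 63.2 and 66.9 CPM in 10x and 52.9 and 40.5 CPM in ss2, and EM-like cells at 104.2, 25.3 and 28.6 CPM in 10x and 78.5, 36.96 and 25.995 CPM in ss2. The lowest value was 13.9 CPM in BA-like cells, from 7 UMIs.

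Rarb lies on the minus strand at chr14:16430839-16819156 and is a known direct target of its own ligand through a retinoic acid response element in its promoter. A direct repeat of receptor half-sites was found in its promoter and in that of no other member; it is shown because it is the sequence by which retinoic acid receptors are known to act on this gene. The stretch lies at chr14:16575509-16575533 (GRCm38.p6, minus strand, RefSeq), inside 2 annotated Rarb exons of GENCODE vM21, and the repeat begins 53 bases before the RefSeq gene start; capitals mark the first half-site, the 5-base spacer and the second half-site.
Rarb DR5: gaagGGTTCACCGAAAGTTCActcg
The search used the half-site AGGTCA and 3 variants of it, which were AGTTCA first, GGGTCA second and GGTTCA last, on both strands, as direct repeats with spacers of 1, 2 or 5 bases (DR1, DR2, DR5), in windows from 250 bases before to 50 bases after each start. A DR5 was found in 32 of 32851 promoters (0.0974%), a DR1 in 73 (0.222%) and a DR2 in 88 (0.268%), while a lone half-site was in 43.7%. Of the members, 8 had 14 promoters in the RefSeq table, and Crabp2 had no entry. A match describes letters in this window and is no measurement of binding.

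Rarb was highest in the neural progenitors and was not confined to the neural classes. N-like cells were at 44.9 CPM (35.01 to 56.7) at E12.5 and 13.3 CPM (4 UMIs) at E14.5 in 10x, and at 70.6 and 56.6 CPM in ss2, where 49.4% and 39.8% of cells had a count. NP-like cells of E12.5 were at 110 CPM (73.4 to 160; 28 UMIs) in 10x and 87.8 CPM in ss2, the highest sum on each platform. EP-like cells were at 13.5 CPM (7 UMIs) in 10x and 54.005 CPM in ss2, while LP-like sums ran from 4.02 to 16.8 CPM and DF-like sums from 0 to 24.9 CPM. EM-like sums did not exceed 4.67 CPM, and 4 of 5 LM-like sums were at 0. On ss2 plates N-like cells ran from 12.2 through 45.5 to 103.9 CPM at E12.5 and from 31.3 through 50.8 to 125.1 CPM at E14.5, so plates of the same day differed widely.

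Rarg, the receptor of skin and cartilage, lies on the minus strand at chr15:102234938-102257517 and was a gene of the mesenchymal classes. DF-like cells were at 59.01 and 60.2 CPM in 10x and at 125.4 and 120.6 CPM in ss2. LP-like cells were at 17.9 and 23.3 CPM in 10x and at 76.04 and 27.05 CPM in ss2, and EP-like cells at 23.2 CPM in 10x and 115.8 CPM in ss2. EM-like sums reached at most 4.43 CPM in 10x and 18.2 CPM in ss2, N-like sums at most 2.57 CPM, and BA-like cells were at 0, which allows up to 5.95 CPM. Rarb and Rarg were thus highest in different classes, with EP-like cells of ss2 carrying both.

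**Figure D2:**
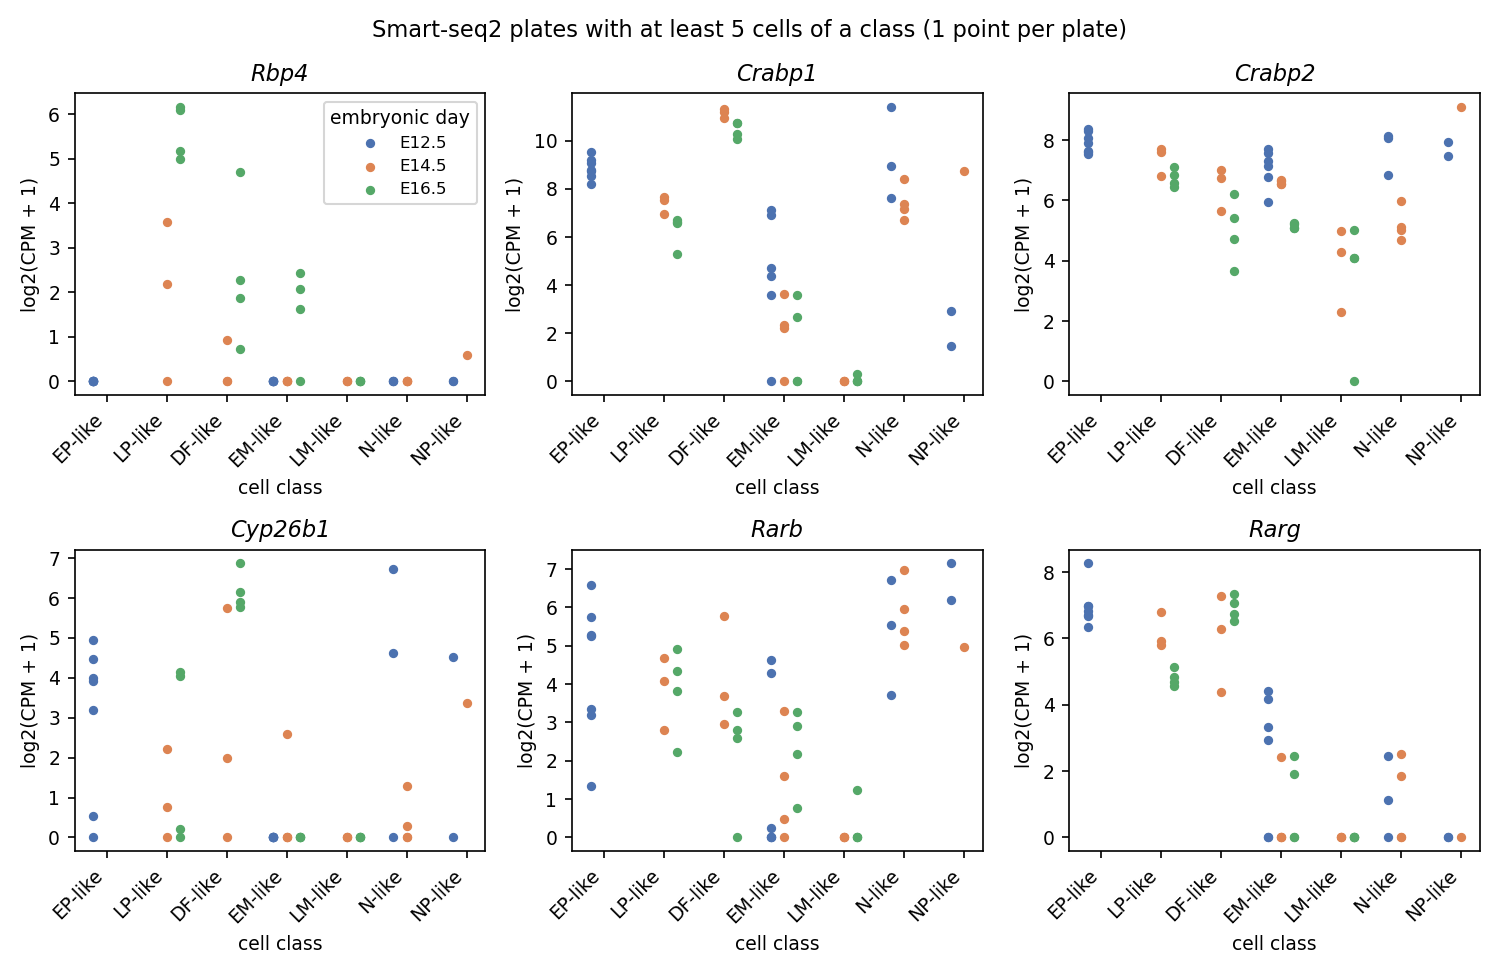
Level of Rbp4, Crabp1, Crabp2, Cyp26b1, Rarb and Rarg on single ss2 plates as log2(CPM + 1). Each plate that held at least 5 cells of a class is 1 point, with colour for the embryonic day. Before the log scale, DF-like plates of Crabp1 lie between 1066 and 2576 CPM and LP-like plates between 37.9 and 205.03 CPM, with no overlap.

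Single ss2 cells can be read for several members at once. Of the 71 DF-like cells with Cyp26b1, 70 also had Crabp1 and 67 also had Rarg, where 110 DF-like cells had Crabp1 and 99 had Rarg in all. Among LP-like ss2 cells 21 had Aldh1a2 and 12 had Cyp26b1, and 0 had both. Among EP-like ss2 cells 8 had Aldh1a2, 25 had Cyp26b1 and 1 had both. In LP-like cells Rbp4 was in 56 and Aldh1a2 in 21, with 5 holding both. Counts of these sizes describe the cells sequenced and were not tested. Where each gene is in few cells, few or no cells with both do not show that the genes exclude each other.

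The first comparison asked how retinoid genes differ between dermal fibroblasts and the late progenitors present on the same days. It used 8 sums, DF-like and LP-like in each of 4 pools, with the pool as a block. The test throughout was edgeR's quasi-likelihood test over all genes with Benjamini-Hochberg adjustment, called at an adjusted p under 0.05, and changes are log2 fold changes ± SE. Sums are not separate embryos with a known origin, so p-values measure the spread among sums, which may be technical. Of 14224 genes tested, 12.3% were called, 5.46% higher and 6.87% lower in DF-like cells. Of the 9 members 3 were higher, 3 were lower and 3 were not called; their median change was -0.24 against -0.05 over all genes.

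Crabp1, Cyp26b1 and Rarg were higher in DF-like cells, each in 4 of 4 pools. Crabp1 was higher by 3.93 ± 0.15 (adjusted p = 5.4e-07), with DF-like to LP-like ratios of 18.1 and 9.85 in 10x at E14.5 and E16.5 and of 15.9 and 17.5 in ss2. Cyp26b1 was higher by 3.65 ± 0.32 (adjusted p = 5.9e-05). Rarg was higher by 1.48 ± 0.25 (adjusted p = 0.0034), and with ss2 pools alone by 1.45 with an adjusted p of 0.17. The binding protein, the degrading enzyme and a receptor were thus called in the same direction.

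Rbp4, Crabp2 and Aldh1a2 were lower in DF-like cells. Rbp4 fell by 3.39 ± 0.37 on the log2 scale (adjusted p = 2.2e-04), with ratios of 0.04 and 0.03 in 10x and 0.09 and 0.15 in ss2. Aldh1a2 had an adjusted p of 8.6e-05; since all 4 DF-like sums were at 0, its change is given as a bound, at least 3.03-fold lower in 10x (17 UMIs or 6.77 CPM in LP-like cells against a limit of 2.23 CPM, from 3 counts over both DF-like sums). Crabp2 fell by 1.39 ± 0.18 (adjusted p = 6.0e-04), with ratios of 0.31 and 0.52 in 10x and 0.45 and 0.35 in ss2. Against the cluster led by Clec3b and Dpt alone, and so at E16.5 alone, Crabp2 lost its call and stood at 0.68 (adjusted p = 0.29). There the platforms differed in sign: DF-like cells were below this cluster in 10x (37.9 against 68.54 CPM) and above it in ss2 (37.9 against 12.48 CPM, with 41.99% of the latter in 1 cell). With ss2 pools alone Crabp2 stood at -1.32 (adjusted p = 0.082) and Rbp4 at -3.08 (adjusted p = 0.064).

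Markers of other classes also differed between these sums. Cartilage markers summed to 223.9 and 20.7 CPM in the LP-like 10x sums of E14.5 and E16.5 and to 620.7 and 31.7 CPM in the ss2 sums, against 12.6 to 27.5 CPM in DF-like sums. BA markers summed to 151.96 and 521.04 CPM in LP-like 10x sums and to 293.04 and 515.2 CPM in ss2 sums, against 23.2 and 189.5 CPM and 31.98 and 144.9 CPM in DF-like sums. Their part in these results was not tested.

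Rara, Rarb and Aldh1a1 were not called, with changes of 0.14 ± 0.20 (adjusted p = 0.73), -0.24 ± 0.68 (adjusted p = 0.88) and -2.07 ± 1.19 (adjusted p = 0.33). Against the Clec3b and Dpt cluster alone Aldh1a1 was called, at -2.56 (adjusted p = 0.048). Of 17 other genes of the pathway 14 were tested, 1 was higher and 4 were lower in DF-like cells. The retinoid X receptor Rxrg was higher by 2.87 ± 0.72 (adjusted p = 0.027), a call lost without either 10x pool (0.12 and 0.065), in ss2 alone (0.26) and against the Clec3b and Dpt cluster alone (0.082). Among those that were lower, the retinal dehydrogenase Aldh1a3 fell by 4.65 ± 0.45 (adjusted p = 1.0e-04). Rdh10, which oxidises retinol to retinal, fell by 1.204 ± 0.25 (adjusted p = 0.010) but stood at 0.77 (adjusted p = 0.32) against the Clec3b and Dpt cluster alone, and its adjusted p was 0.24 in 10x alone and 0.15 in ss2 alone. Cyp26a1, another retinoic acid hydroxylase, was at least 5.35-fold lower in 10x (adjusted p = 0.036), also lost without either 10x pool (0.14 and 0.11), in ss2 alone (0.35) and with DESeq2 (0.081).

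**Figure D3:**
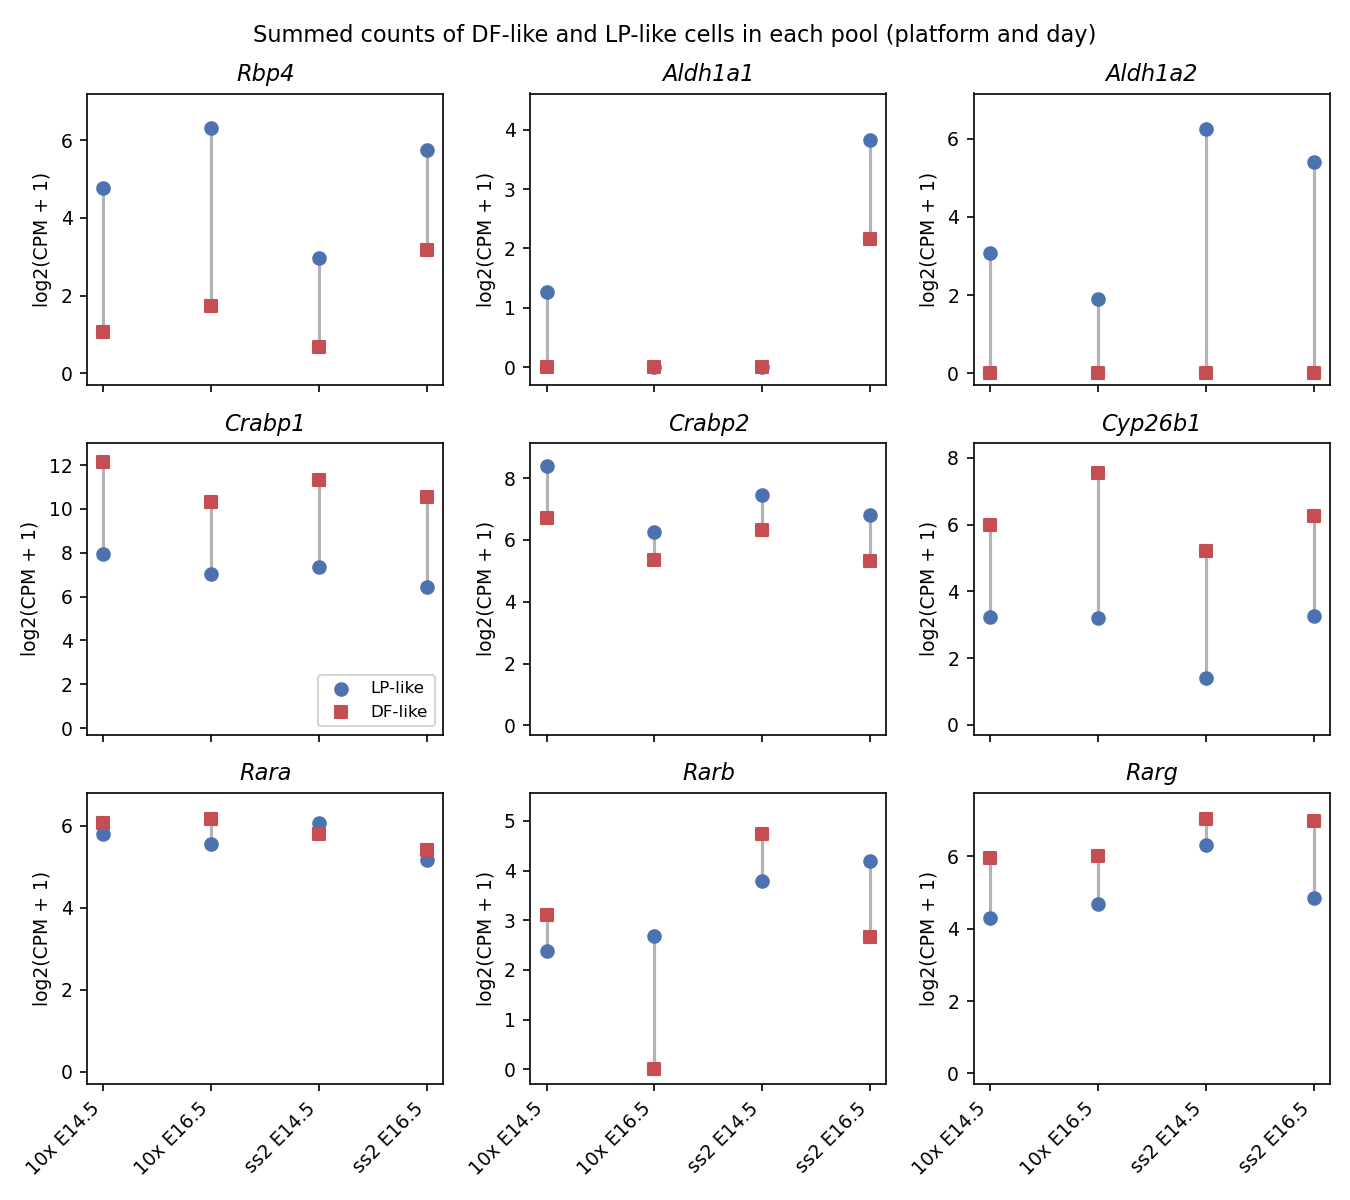
Level of each of the 9 genes as log2(CPM + 1) in DF-like (squares) and LP-like (circles) sums of the same pool, joined by a line, for 10x and ss2 at E14.5 and E16.5. Crabp1, Cyp26b1 and Rarg lie higher in DF-like sums in 4 of 4 pools, Rbp4, Crabp2 and Aldh1a2 lie higher in LP-like sums in 4 of 4 pools, and the lines of Rara and Rarb have no shared direction.

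The next comparison set early muscle against mesenchymal progenitors of the same pools, EP-like at E12.5 and LP-like at E14.5 and E16.5, over 12 sums. Of 13984 genes 25.4% were called, 10.5% higher and 14.9% lower in EM-like cells. Of the 9 members 0 were higher, 7 were lower and 2 were not called. The median change of the members was -4.30, against -0.15 over all genes. Rbp4, Aldh1a2, Cyp26b1 and Aldh1a1 lay beyond that median with few or no EM-like cells holding a count, so its size is uncertain. Crabp1 fell by 3.90 ± 0.27 (adjusted p = 2.6e-05), Rarg by 4.30 ± 0.71 (adjusted p = 0.0020), Rarb by 2.27 ± 0.51 (adjusted p = 0.0092) and Crabp2 by 1.17 ± 0.20 (adjusted p = 0.0023). With ss2 pools alone Crabp1 kept its call, while the adjusted p was 0.13 for Rarg, 0.14 for Rarb and 0.17 for Crabp2. The 2 members not called were Rara at -0.51 ± 0.18 (adjusted p = 0.063) and Rbp4 at -4.44 (adjusted p = 0.056), whose EM-like level at E12.5 in 10x came from the single cell named above. Rbp4 was called without the 10x pool of E12.5, at -6.13 (adjusted p = 0.0042), and without the ss2 pool of E12.5, at -4.14 (adjusted p = 0.025). With DESeq2 both Rara and Rbp4 were called, among 8 members that were lower.

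The other 3 calls of this comparison rested on few counts. Aldh1a2 fell by 4.97 ± 1.47 (adjusted p = 0.032); without the 10x pool of E14.5, the 10x pool of E16.5 or the ss2 pool of E16.5 its adjusted p was 0.094, 0.065 and 0.11. Cyp26b1 fell by 5.85 ± 1.66 (adjusted p = 0.026); without the 10x pool of E12.5, E14.5 or E16.5 its adjusted p was 0.061, 0.063 and 0.061, and without the ss2 pool of E16.5 it was 0.066. Aldh1a1, at 0 in all 6 EM-like sums, had an adjusted p of 0.035, which became 0.052 without the 10x pool of E16.5 and 0.87 with DESeq2. With ss2 pools alone the adjusted p was 0.26 for Aldh1a2 and 0.27 for Cyp26b1, and Cyp26b1 also lost its call with all deposited cells (0.097) and with doublets removed (0.092). No fold is given for Aldh1a1, since the progenitor sums of 10x held 3 UMIs of it in all.

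Of the other pathway genes 15 were tested, with 2 higher and 3 lower in EM-like cells. Rxrg was higher by 3.98 ± 0.64 (adjusted p = 0.0023) and the retinol transporter receptor Stra6 by 1.06 ± 0.34 (adjusted p = 0.046). Aldh1a3 fell by 4.81 (adjusted p = 6.6e-04), Rdh10 by 2.82 (adjusted p = 0.0042) and the retinal reductase Dhrs3 by 1.67 (adjusted p = 0.042). The Stra6 call was lost without each 10x pool in turn (0.060 to 0.13), without the ss2 pool of E12.5 or E14.5 (0.073 and 0.16) and with RLE scaling (0.063). The Dhrs3 call was lost without each 10x pool in turn (0.070 to 0.15) and without the ss2 pool of E14.5 or E16.5 (0.10 and 0.17). In ss2 alone none of these 5 genes was called, with adjusted p from 0.095 to 0.38.

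Late muscle against early muscle, over 10 sums, had 24.1% of 10148 genes called, 11.5% higher and 12.6% lower, with a median of 0.06 over all genes. Only 3 members passed the filter on low counts. Crabp2 fell by 1.73 ± 0.32 (adjusted p = 1.4e-04), from EM-like levels of 25.003 to 184.9 CPM to LM-like levels of 34.8, 25.9 and 0 CPM in 10x and 13.4 and 15.8 CPM in ss2. With ss2 pools alone its change was -1.88 (adjusted p = 0.11). Crabp1 stood at -1.94 ± 0.77 (adjusted p = 0.068; 0.038 without the 10x pool of E14.5) and Rara at 0.53 ± 0.27 (adjusted p = 0.17). Of 13 other pathway genes tested 3 were higher, among them Rxrg by 1.74 and Dhrs3 by 1.89, and 2 were lower, Stra6 and the retinol binding protein Rbp7, the latter by 3.55 on the log2 scale. Rbp7 lost its call without the 10x pool of E14.5 or E16.5 (0.10 and 0.076), at the higher clustering resolution (0.086) and with all deposited cells (0.072). Dhrs3 lost its call without the 10x pool of E14.5 (0.12) or the ss2 pool of E16.5 (0.14), and Stra6 with DESeq2 (0.23). In ss2 alone Rxrg, Dhrs3 and Rbp7 were not called (0.20, 0.12 and 0.16).

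Neurons were set against mesenchymal progenitors of the same pools at E12.5 and E14.5, over 8 sums. Of 14423 genes 24.5% were called, 10.7% higher and 13.8% lower in N-like cells, and the median over all genes was -0.11. Of 8 members tested 1 was higher, 2 were lower and 5 were not called. Crabp1 had a change of 0.00 ± 0.19 (adjusted p = 1.0), its N-like levels lying at 191.8 to 546 CPM against 155.8 to 530.1 CPM in the progenitors. Rarg fell by 5.10 ± 0.56 (adjusted p = 0.0022). The 2 receptors were thus called in opposite directions, since Rarb was higher by 1.22 ± 0.36 (adjusted p = 0.049).

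The Rarb call in neurons was near the threshold. Its change was 1.16 without the 10x pool of E12.5 (adjusted p = 0.13), 1.26 without the 10x pool of E14.5 (adjusted p = 0.10) and 0.92 without the ss2 pool of E14.5 (adjusted p = 0.16), and its adjusted p was 0.083 in 10x alone, 0.23 in ss2 alone and 0.051 at the lower clustering resolution. Aldh1a2, with 3 UMIs in the N-like 10x sums and 0 in ss2, had an adjusted p of 0.032, which became 0.097 without the 10x pool of E14.5, 0.10 without the ss2 pool of E12.5, 0.090 without that of E14.5 and 0.051 with all deposited cells. Crabp2 stood at -1.10 ± 0.46 (adjusted p = 0.12), Rara at -0.49 ± 0.23 (adjusted p = 0.17), Cyp26b1 at -1.39 (adjusted p = 0.32) and Rbp4 at -7.11 (adjusted p = 0.051). Rbp4 was called without either E12.5 pool, with an adjusted p of 0.024 without that of 10x and 0.047 without that of ss2. Of 14 other pathway genes tested 0 were higher and 4 were lower: Rdh10 by 3.01 (adjusted p = 0.014), Aldh1a3 by 3.92 (adjusted p = 0.0029), the short-chain reductase Dhrs4 by 2.22 (adjusted p = 0.011) and Cyp26a1 (adjusted p = 0.021). Without the 10x pool of E14.5 the calls of Rdh10 (0.069) and Dhrs4 (0.054) were lost, and without the ss2 pool of E12.5 or E14.5 that of Cyp26a1 (0.051 and 0.058). In ss2 alone Dhrs4, Aldh1a3 and Cyp26a1 were not called (0.088, 0.055 and 0.059).

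**Figure D4:**
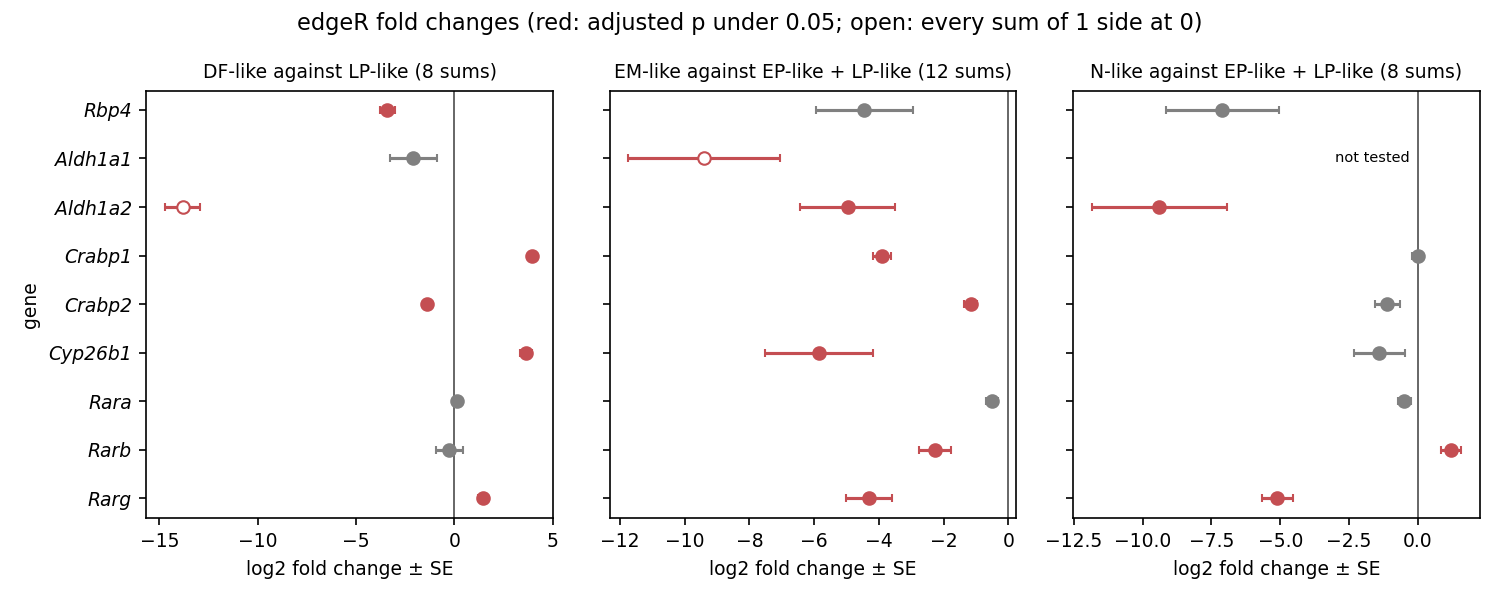
Log2 fold change ± SE of the 9 genes in DF-like against LP-like cells (8 sums), EM-like against EP-like and LP-like cells (12 sums) and N-like against EP-like and LP-like cells (8 sums), by edgeR's quasi-likelihood test. Red points have an adjusted p under 0.05 and open symbols have 1 side with every sum at 0; 7 of 9 genes are red and left of 0 in EM-like cells, and Crabp1 lies at 0.00 in N-like cells.

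Late against early progenitors over 6 sums, with platform as a term, had 6.13% of 14106 genes called, 5.13% higher and 1% lower, and a median of 0.11 over all genes. Late progenitors came from other days than early ones, so day, class and library cannot be told apart. Of the 9 members 1 was higher, 1 was lower and 7 were not called. Rbp4 was higher by 9.64 ± 1.96 (adjusted p = 0.012). The size of that change rested on the EP-like ss2 sum, which was at 0: it was 3.87 without that sum (adjusted p = 0.81), 3.77 in 10x alone and 14.22 in ss2 alone. Without the LP-like 10x sum of E16.5 its adjusted p was 0.088. Crabp1 fell by 1.47 ± 0.37 (adjusted p = 0.034), and its adjusted p was 0.11 without the EP-like 10x sum, 0.88 without the EP-like ss2 sum and 0.12 without the LP-like 10x sum of E16.5. Crabp2 stood at -0.28 (adjusted p = 0.82) and, with the Clec3b and Dpt cluster alone as LP-like, at -2.73 (adjusted p = 1.8e-07). That cluster gave LP-like sums at E16.5 only, so this fit had fewer sums. Its ss2 level of Crabp2 came from 5 of 26 cells, with 41.99% in the highest cell. With that cluster alone Rara was also called, at -1.19 (adjusted p = 0.046). Without the LP-like ss2 sum of E16.5, Aldh1a2 was called at 2.13 (adjusted p = 0.046) and Rarb at -1.78 (adjusted p = 0.033). Within 10x alone or ss2 alone neither Rbp4 (0.14 and 0.11) nor Crabp1 (0.28 and 0.30) had an adjusted p under the threshold. Of 14 other pathway genes 1 was called, Stra6, which fell by 3.30 (adjusted p = 0.0090); its adjusted p was 0.94 without the EP-like ss2 sum and 0.18 in ss2 alone.

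Within early muscle, cells of E14.5 and E16.5 were set against those of E12.5 over 6 sums. The class held 2 clusters, and the days did not share them evenly: cells of E12.5 on both platforms and of E16.5 in 10x lay mostly in one, and cells of E14.5 on both platforms and of E16.5 in ss2 mostly in the other. Of 12479 genes 3.41% were called, 2.08% higher and 1.34% lower, with a median of 0.10. Of 7 members tested 0 were higher and 2 were lower. Crabp1 fell by 2.43 ± 0.44 (adjusted p = 0.0048); its adjusted p was 0.081 without the 10x sum of E12.5, 0.065 without that of E16.5 and 0.75 without the ss2 sum of E12.5. Rara fell by 1.33 ± 0.34 (adjusted p = 0.038), and its adjusted p was 0.35, 0.15 and 0.14 without the 10x sums of E12.5, E14.5 and E16.5 and 0.72 without the ss2 sum of E12.5. Within ss2 alone these were 0.25 for Crabp1 and 0.49 for Rara, and Crabp1 was at 0.069 within 10x alone. Rara was at 0.059 with no filter on low counts. Crabp2 stood at -0.88 (adjusted p = 0.33) and Rarg at -3.35 (adjusted p = 0.12). Of 15 other pathway genes 1 fell and 1 was higher, the latter being Rbp7 (adjusted p = 0.019), whose E12.5 sums were at 0. Rbp7 lost its call without each 10x sum in turn (0.067 to 0.14), without the ss2 sum of E12.5 (1.0) or E16.5 (0.060) and in ss2 alone (0.31).

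After the filters brown adipocytes gave 1 sum, because only 14 ss2 cells of E16.5 were BA-like, too few for a sum. With all deposited cells, clustered anew, 61 ss2 cells of E16.5 were BA-like. The filter on mitochondrial counts had removed 51 ss2 cells in all. A comparison with the ss2 BA-like cells was not tested. BA-like cells were therefore set against LP-like cells of the same 10x library of E16.5. There was no replicate, and the exact 95% intervals of the CPM ratio cover counting error only. Crabp1 was at 0.0478 times the LP-like level (0.00953 to 0.148; 3 against 48 UMIs), Crabp2 at 0.0547 (0.00631 to 0.217; 2 against 28 UMIs) and Rara at 0.315 (0.110 to 0.7996; 7 against 17 UMIs). Rarg held 0 UMIs against 9, with an upper bound of 0.388. Rbp4 had a ratio of 1.504, and its interval of 0.946 to 2.44 held 1, as did those of Rarb, Cyp26b1 and Aldh1a2. Among the other pathway genes Dhrs4 was higher at 2.35 (1.26 to 4.65), and Rxrg held 7 UMIs against 0, with a lower bound of 1.10. With doublets removed Rxrg held 5 UMIs against 0, and its interval, with a lower bound of 0.711, held 1.

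The 2 bulk libraries of sorted Pdgfra-/Cd36+ cells, of 24862787 and 32947290 counts, were technical duplicates, and no comparison was made with them. Their markers fitted the sort, with Cd36 at 1510 and 1262 CPM, the adipocyte gene Fabp4 at 4576 and 3935 CPM, and Pdgfra at 6.03 and 8.41 CPM. Rbp4 was at 59.2 and 68.96 CPM and Rara at 7.16 and 16.7 CPM. The other 7 members lay between 0.577 and 2.76 CPM, the higher values being Crabp1 at 2.05 and 2.76 CPM and Rarg at 2.09 and 2.40 CPM. In bulk cells, fewer cells of a type and less RNA per cell cannot be told apart. Among the other pathway genes Dhrs4 was at 80.9 and 83.5 CPM, Dhrs3 at 45.4 and 62.6 CPM and Rxrg at 45.01 and 50.4 CPM.

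The genes whose levels followed each member most closely were found over the 29 sums, by Pearson's r of log2(CPM + 1) centred per platform, among 9580 genes with a mean of at least 10 CPM. These correlations describe sums that share libraries, depth and classes, and were not tested. Crabp1 was most like B4galnt1 (r = 0.90), Robo2 (0.89) and Cacna1g (0.88). Rarg was most like Tmem26 (0.96), Pdgfrb (0.94) and Ednra (0.93), and Cyp26b1 was most like Shox2 (0.83), Spred1 (0.80) and Inhba (0.78). The closest genes to Crabp2 were Fndc3a (0.91), Men1 (0.90) and Meis2 (0.90), those to Rbp4 were Prelp (0.80), Lpl (0.79) and Bhlhe40 (0.75), and the closest to Rarb was Maml2 (0.87), to Aldh1a2 Zfp185 (0.83), to Rara Mn1 (0.83) and to Aldh1a1 Ctsl (0.63). Among the members themselves Crabp1 correlated with Rarg at 0.71 and with Cyp26b1 at 0.66.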

How the data were processed

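Sorted YFP+ cells were measured by 10x and Smart-seq2 at 3 embryonic days. The 10x UMI counts were deposited by the authors as a gene by cell table of whole numbers, and the labels' processing notes list Cell Ranger, STAR, bcl2fastq and Seurat with mm10. The Smart-seq2 and bulk values are estimated counts (expected counts) deposited by the authors, made with kallisto 0.44.0 and not whole; sums of them were rounded to whole numbers. Of 18 bulk columns, 16 could not be matched to 1 group from their names and were not used, so the 8 planned bulk comparisons were not made.

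Cells with over 8% mitochondrial counts were removed (13 from 10x, 51 from Smart-seq2); the ceiling of 15000 counts for 10x and the minimum of 4000 genes for Smart-seq2 were also applied. Seurat 5.3.0 integrated both platforms over 15147 shared genes (2000 variable genes, 30 components, resolution 0.8) without the 9 members and the 17 other pathway genes, and clusters were named from markers. Counts were summed per class, platform and day where at least 20 cells were present (29 sums) and tested with edgeR 4.0.16 (TMM, quasi-likelihood F test, Benjamini-Hochberg adjustment, 0.05, pool or platform as a term); the SE was taken from the fold change and F. DESeq2 1.42.0, other scalings, filters, resolutions, cell sets, single platforms and left-out pools were alternatives. On simulated data the test recovered between 67% and 94.5% of changed genes, at 0.741% to 3.98% false calls. The changed genes were drawn only from genes with higher summed counts, with 1 size of fold change and a fixed spread. These rates therefore do not apply to members with few counts or smaller changes.

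Members, lists and rules were chosen with earlier results of these data known. All 9 members are named, other pathway genes where called (some are not reported here), and for likeness up to 3 genes a member. Promoter windows came from RefSeq. A test of whether the DF-like change differed between days found few of the known differences in simulated data and is not reported. Scripts ran in R 4.3.3 and Python 3.11.15 with scipy 1.17.1.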

Additional observations from a re-analysis of the deposited data

Results flagged for a closer look

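Single Smart-seq2 plates that stood far from the other plates of their class and day were looked for in 53 groups of plates with 4 to 10 plates. Such a plate was held by 10 groups. That number is not set against chance, since a group with all plates but 1 at 0 is always flagged. This held for Rarg and Cyp26b1 in EM-like cells of E14.5 and Aldh1a2 in EM-like cells of E16.5. It also held for Crabp1 and Rarb in LM-like cells of E16.5. The 1 low plate was of LP-like cells at E16.5, with Crabp1 at 37.9 CPM. The others were high: Rarg at 306.8 CPM in EP-like cells of E12.5, Rbp4 at 25.1 CPM in DF-like cells of E16.5, Aldh1a2 at 48.4 and 7.30 CPM in EM-like cells of E12.5 and E16.5, Rarg at 4.43 CPM and Cyp26b1 at 5.03 CPM in EM-like cells of E14.5, Crabp1 at 0.255 CPM and Rarb at 1.34 CPM in LM-like cells of E16.5, and Cyp26b1 at 1.46 CPM in N-like cells of E14.5.

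NP-like cells took part in no comparison and had signal above the limit of a count of 0 for 4 members in 10x at E12.5: Crabp1 at 193.2 CPM, Crabp2 at 193.2 CPM, Rara at 63.1 CPM and Rarb at 110 CPM. The platforms differed for Crabp1, which was at 1.74 and 6.56 CPM on the 2 Smart-seq2 plates with enough NP-like cells of E12.5. On these plates Crabp2 was at 178.1 and 240.97 CPM, Rara at 49.2 and 70.4 CPM and Rarb at 71.996 and 141.1 CPM.

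The sorted Pdgfra-/Cd36+ bulk cells also took part in no comparison, and all 9 members had counts there. Their means over both libraries were 64.1 CPM for Rbp4, 11.9 for Rara, 2.41 for Crabp1, 2.24 for Rarg, 2.05 for Rarb, 1.15 for Crabp2, 1.05 for Cyp26b1, 0.786 for Aldh1a1 and 0.771 for Aldh1a2.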

How the results depend on the processing

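Of 644 values of single members under alternatives, 560 kept their direction and their side of the threshold, 50 lost a call, 14 gained one and 20 changed sign. Of those 20, 1 was called before: Crabp2 in DF-like against LP-like cells, at 0.68 with the LP-like cluster led by Clec3b and Dpt alone (an alternative chosen after seeing the data, as was the use of Smart-seq2 pools alone), where Rdh10 also changed sign, to 0.77. The other 19 were called neither before nor after. In DF-like against LP-like cells Rara went to -2.2e-04 (Smart-seq2 alone) and Rarb ran from -1.09 to 0.67 with 1 pool left out. In N-like cells Crabp1 went to -0.014 and -0.064 (resolutions 0.4 and 1.2), -0.026 (all cells), -0.0036 (doublets removed) and -0.092 (Smart-seq2 alone) and ran from -0.099 to 0.11 with 1 pool left out, and Cyp26b1 went to 0.33 (all cells) and 0.19 (doublets removed). In LP-like against EP-like cells Aldh1a2 went to -0.21 (1 cluster) and Cyp26b1 to 0.17 (Smart-seq2 alone), and with 1 sum left out these ran from -0.47 to 2.92 and from -1.33 to 0.25, and Rarg from -0.88 to 0.040. Rbp4 in EM-like cells across days went to 8.93 (Smart-seq2 alone) and ran from -13.3 to 8.21 with 1 sum left out. Fewer sums enter single-platform and left-out fits and those with 1 LP-like cluster. Genes called in DF-like against LP-like cells were 1753, with about 5.2e+02 from 10x alone (7.93% of 6518 tested), about 2.6e+02 from Smart-seq2 alone (1.88% of 13953) and 1042 to 1683 with 1 pool left out, the lowest being 1042 and 1109 without the 10x pool of E14.5 or E16.5. EM-like against progenitors gave 3548, then 1998, 88 and 1875 to 4642. LM-like against EM-like gave 2444, then 979, 1088 and 1581 to 2648. N-like against progenitors gave 3536, then 947 from Smart-seq2 alone and 1532 to 3200. LP-like against EP-like gave 864, then 1503 with DESeq2, 2039 with 1 LP-like cluster, 61, 27 and 0 to 1592 (0 without the EP-like Smart-seq2 sum by edgeR, with 678 at an unadjusted p under 0.05). EM-like across days gave 3.41% of 12479 genes, then 660 with DESeq2, 63, 0 from Smart-seq2 alone (1432 at an unadjusted p) and 0 to 853 (0 without the Smart-seq2 sum of E12.5, with 440 at an unadjusted p). The share of calls that were higher in LP-like than EP-like cells was 83.7%, and 71.3% with DESeq2. RLE scaling in edgeR moved the median of all genes from 0.06 to -0.09 in LM-like against EM-like cells, and DESeq2 to -0.07. On thinning 58 shares of cells moved out of their interval and 86 did not. No paired analysis was possible because the labels' replicate numbers only name samples, and the pool is already a term of the fits. The planned bulk comparisons and their alternatives were not run. At 10x depth, sums with fewer than 3 counts set no level.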
